A study of Mus musculus with 12 samples.

Results

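The 8 genes described here are a set chosen for their place at the blood-brain barrier, the seal that brain capillaries form between blood and tissue: the claudin genes Cldn5 and Cldn12, the occludin gene Ocln and its relative Marveld2, the scaffold gene Tjp1, the junctional adhesion genes F11r and Jam2, and Mfsd2a. They were taken by symbol from the deposited table, which lists 27978 genes in 12 RNA-seq libraries of mouse hippocampal tissue, and all 8 were found. Of these genes 7 had a mean of at least 1 FPKM (fragments per kilobase of transcript, scaled to the mapped fragments of a library) and entered the tests with 12559 genes in all, and Marveld2 did not. The mice had received a fecal microbiota transplant (FMT) and fall into 3 groups of 4 libraries: FMT-CON, FMT-DSS and a group titled FMT-SP, which the design text names FMT-DSS+SP. SP is the neuropeptide substance P according to the title of the series. The sources used here do not say what CON and DSS stand for, at which step SP was given, or the strain, sex and age of the mice. All mice, the FMT-CON group included, had thus received a transplant, and no group without one was analysed here. Nothing in the labels ties a library to its own mouse, and p-values therefore measure the spread between libraries, which may be technical.

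Brain capillary endothelial cells are joined by tight junctions, in which strands of claudins close the gap between neighbouring cells, occludin and other MARVEL proteins line the strands, junctional adhesion molecules hold the membranes together and ZO-1, the product of Tjp1, ties all of them to the actin cytoskeleton. Cldn5 is the dominant claudin of these cells. Mfsd2a is no junction protein: it carries lysophospholipids that hold the omega-3 fatty acid DHA into the brain and holds back the transport of vesicles across the endothelial cell, so the set mixes the junction with the second barrier property. Several of the genes are also known outside the endothelium. Tjp1 is made in astrocytes and neurons, F11r in epithelia and platelets, and occludin in epithelia, so a level in a piece of tissue is a sum over cell types, and fewer cells of a type cannot be told apart from less RNA per cell.

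The promoters of 5 of the genes are printed because the 8 genes did not vary together across libraries: Cldn5 and Mfsd2a are the genes with the most barrier-restricted roles, Tjp1 and F11r belong to a group of 5 that varied together, and Marveld2 has the lowest level. Each is the 250 bases before the start of the gene's first RefSeq entry on the mouse build GRCm38.p6, written 5′ to 3′ on the strand of the gene. Capitals mark matches, on either strand, to 7 short motifs, which are spelled out in the sentences after the sequences.
Cldn5, chr16:18776597-18776846, plus strand: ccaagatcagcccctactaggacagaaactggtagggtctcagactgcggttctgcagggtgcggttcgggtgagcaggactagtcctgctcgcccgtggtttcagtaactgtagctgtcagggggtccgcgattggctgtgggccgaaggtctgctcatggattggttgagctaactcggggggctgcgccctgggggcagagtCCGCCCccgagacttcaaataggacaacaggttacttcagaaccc
Mfsd2a, chr4:122961189-122961438, minus strand: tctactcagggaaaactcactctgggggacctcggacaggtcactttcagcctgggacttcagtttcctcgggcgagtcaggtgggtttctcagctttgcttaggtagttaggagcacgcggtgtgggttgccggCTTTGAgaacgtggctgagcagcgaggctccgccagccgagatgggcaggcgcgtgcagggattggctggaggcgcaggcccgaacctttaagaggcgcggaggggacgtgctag
Tjp1, chr7:65371245-65371494, minus strand: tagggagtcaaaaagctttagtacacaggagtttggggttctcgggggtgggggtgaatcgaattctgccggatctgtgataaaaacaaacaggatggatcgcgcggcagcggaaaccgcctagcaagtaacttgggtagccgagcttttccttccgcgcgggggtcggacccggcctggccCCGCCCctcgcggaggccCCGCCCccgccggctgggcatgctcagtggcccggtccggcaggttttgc
F11r, chr1:171437311-171437560, plus strand: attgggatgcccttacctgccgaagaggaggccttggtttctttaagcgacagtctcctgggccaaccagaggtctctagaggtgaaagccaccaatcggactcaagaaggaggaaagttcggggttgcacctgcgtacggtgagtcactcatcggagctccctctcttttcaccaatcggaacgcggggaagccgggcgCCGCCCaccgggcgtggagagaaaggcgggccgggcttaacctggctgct
Marveld2, chr13:100616972-100617221, minus strand: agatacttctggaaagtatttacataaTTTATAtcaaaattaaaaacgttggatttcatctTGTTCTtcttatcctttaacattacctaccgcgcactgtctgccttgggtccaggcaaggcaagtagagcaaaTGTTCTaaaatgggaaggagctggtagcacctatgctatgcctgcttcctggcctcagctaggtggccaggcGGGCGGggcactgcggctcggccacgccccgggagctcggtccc
In first entries the Sp motif GGGCGG was in 5 of the 7 genes with an entry (Cldn5, Ocln, Tjp1, F11r and Marveld2), against 32.9% of the 27025 first-entry promoters of the same length, and Tjp1 held 2 copies. Cldn12 held it in its entries 2 and 3, from other starts of the gene. Mfsd2a alone held CTTTGA, a motif of the TCF/LEF factors, which 14.0% of all promoters hold. Marveld2 alone held AGAACA, a motif of steroid hormone receptors, in 2 copies, against 16.2% of all promoters. It was also the only gene of the 7 with a match to TATAAA, the TATA box motif, which 12.97% of all promoters hold on either strand. The match lay on the opposite strand, 223 to 218 bases before the start, and whether it acts as a TATA box was not tested. None of the 7 held the ETS factor motif CCGGAAGT, beside 2.93% of all promoters. The E-box (CACGTG) was likewise in none, beside 6.05% of all promoters. The core motif of SOX factors, ACAAT, was in none of the 7 and in 28.3% of all promoters. GC content was 59.6% for Cldn5, 61.6% for Mfsd2a, 63.2% for Tjp1 and 50.4% for Marveld2, beside a median of 52.0% over all promoters. Jam2 is named only.

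On the GENCODE vM21 annotation of GRCm38, Cldn5 (chr16:18776847-18778262) is a gene with a single annotated transcript, while the others have between 3 and 8. Jam2 (chr16:84774123-84825928) lies on the same chromosome and strand. Ocln (chr13:100496507-100552718) and Marveld2 (chr13:100595957-100616971) lie on the minus strand of the same chromosome with 43238 bases and 2 other annotated genes between them. Cldn12 is at chr5:5489537-5514958, Tjp1 at chr7:65296165-65527781, F11r at chr1:171437535-171464603 and Mfsd2a at chr4:122946850-122961188.

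Depth was estimated from the spacing of low values at 31.4 to 37.3 M mapped fragments per library. Hippocampal markers were present in all 12 libraries: Prox1, of dentate granule cells, between 5.97 and 15.8 FPKM, and Neurod6, of pyramidal cells, between 46.4 and 92.0 FPKM. The pieces of tissue were not equal. Ttr, the choroid plexus transthyretin gene, ran from 14.7 to 3779 FPKM, the summed thalamus list was highest in FMT-CON 1 (341.9 FPKM against 34.6 to 178 in the other libraries), and the pituitary hormone gene Gh reached 2899 FPKM in FMT-CON 3. Endothelial genes varied less, with a summed level of 109 to 165 FPKM over 16 genes. Mitochondrially encoded genes took 24.0% to 29.0% of all FPKM in the 3 libraries numbered 4 and 15.9% to 20.3% in the other 9. FMT-DSS 2 and FMT-DSS 4 stood apart by glucocorticoid-responsive genes, with list means 0.87 and 0.72 above the average library on the log2 scale, so results that rest on these libraries are also given without them, for the lists and correlations by a choice made after the data were seen.

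Cldn5 was the highest of the 8 genes and Marveld2 the lowest, and the order between them was partly within error. Since FPKM is scaled to transcript length, levels can be set beside each other. Cldn5 averaged 22.8 FPKM over the 12 libraries and stood above Mfsd2a, at 12.03 FPKM, in 12 of 12 libraries. Mfsd2a, Tjp1 (9.12 FPKM), Cldn12 (8.36 FPKM) and Jam2 (7.87 FPKM) formed a middle group in which each gene exceeded the next in 10 of 12 libraries, with ratios of means of 1.32, 1.09 and 1.06, and their ranges overlapped. Jam2 exceeded F11r (3.26 FPKM) in 12 of 12 libraries, and F11r exceeded Ocln (2.53 FPKM) in 9 of 12. Marveld2 averaged 0.479 FPKM, and Ocln to Marveld2 was the only step in the order at which the ranges of neighbours did not overlap. At this depth the lowest Marveld2 value rests on about 20.04 to 33.03 fragments, depending on the transcript counted.

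Cldn5, the claudin that sets the size limit of the endothelial seal, had nearly the same mean in all 3 groups, with SDs from 2.48 to 8.04 FPKM. It stood at 21.8, 25.5, 19.9 and 24.1 FPKM in FMT-CON libraries 1 to 4, at 17.0, 31.7, 15.2 and 27.5 FPKM in FMT-DSS libraries 1 to 4, and at 17.6, 25.7, 30.3 and 17.5 FPKM in FMT-SP libraries 1 to 4. The means were 22.8 ± 2.48, 22.9 ± 8.04 and 22.8 ± 6.31 FPKM (SD, n = 4 each). The FMT-CON libraries lay inside the range of both other groups, and in FMT-DSS the libraries split into 2 high (2 and 4) and 2 low (1 and 3). Between-group differences made up 0.493% of the variance of log2(FPKM + 1) in Cldn5, against a median of 11.1% over all tested genes. No test of the spread was made.

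Cldn12, a more widely expressed claudin, stood at 12.8, 9.04, 7.42 and 6.85 FPKM in FMT-CON, at 9.43, 5.87, 8.73 and 5.84 FPKM in FMT-DSS, and at 7.64, 9.19, 10.2 and 7.34 FPKM in FMT-SP, in the order of the library numbers. FMT-CON 1 was the highest of all libraries and FMT-DSS 2 and FMT-DSS 4, the high libraries for Cldn5, were the lowest for Cldn12. The groups overlapped, with means of 9.03 ± 2.68, 7.47 ± 1.88 and 8.59 ± 1.34 FPKM (SD, n = 4 each).

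Among the MARVEL genes, Ocln stood at 3.23, 2.74, 3.12 and 1.34 FPKM in FMT-CON, at 2.42, 2.27, 2.70 and 1.59 FPKM in FMT-DSS, and at 2.36, 2.75, 3.90 and 1.95 FPKM in FMT-SP. In each group the library numbered 4 was the lowest, and those 3 libraries were the 3 lowest of the 12. Marveld2 encodes tricellulin, which seals the corners where 3 cells meet. It stood at 0.659, 0.428, 0.409 and 0.432 FPKM in FMT-CON, at 0.372, 0.710, 0.432 and 0.719 FPKM in FMT-DSS, and at 0.368, 0.470, 0.435 and 0.316 FPKM in FMT-SP. Its 3 high libraries were FMT-CON 1, FMT-DSS 2 and FMT-DSS 4, and the groups overlapped.

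Tjp1, the ZO-1 scaffold, had the narrowest range, with a highest value 1.69 times the lowest. It stood at 10.6, 11.7, 8.57 and 6.97 FPKM in FMT-CON, at 10.1, 7.10, 9.29 and 7.34 FPKM in FMT-DSS, and at 9.37, 10.4, 10.95 and 7.003 FPKM in FMT-SP. The 2 lowest values were those of FMT-CON 4 and FMT-SP 4, followed by FMT-DSS 2.

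The adhesion genes had the widest ranges. F11r, which encodes JAM-A, stood at 6.12, 4.14, 2.80 and 2.21 FPKM in FMT-CON, at 3.44, 3.58, 2.55 and 1.53 FPKM in FMT-DSS, and at 2.45, 3.53, 4.74 and 2.06 FPKM in FMT-SP, a 4.01-fold range. Jam2, which encodes JAM-B, stood at 11.7, 8.88, 7.31 and 4.55 FPKM in FMT-CON, at 8.58, 8.68, 8.10 and 3.82 FPKM in FMT-DSS, and at 8.61, 8.25, 10.1 and 5.90 FPKM in FMT-SP, a 3.05-fold range. For both genes the 3 lowest libraries were the 3 numbered 4, one in each group, so most of the range lay inside the groups.

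Mfsd2a had the largest share of variance between groups, 37.5%. It stood at 12.9, 8.23, 11.6 and 9.62 FPKM in FMT-CON, at 13.7, 18.0, 12.5 and 12.5 FPKM in FMT-DSS, and at 13.4, 11.5, 8.53 and 11.9 FPKM in FMT-SP. All FMT-DSS libraries but 2 exceeded every FMT-CON library, and those 2 lay just under FMT-CON 1, so that the groups overlapped. The means were 10.6 ± 2.07, 14.2 ± 2.58 and 11.3 ± 2.05 FPKM (SD, n = 4 each).

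**Figure D1:**
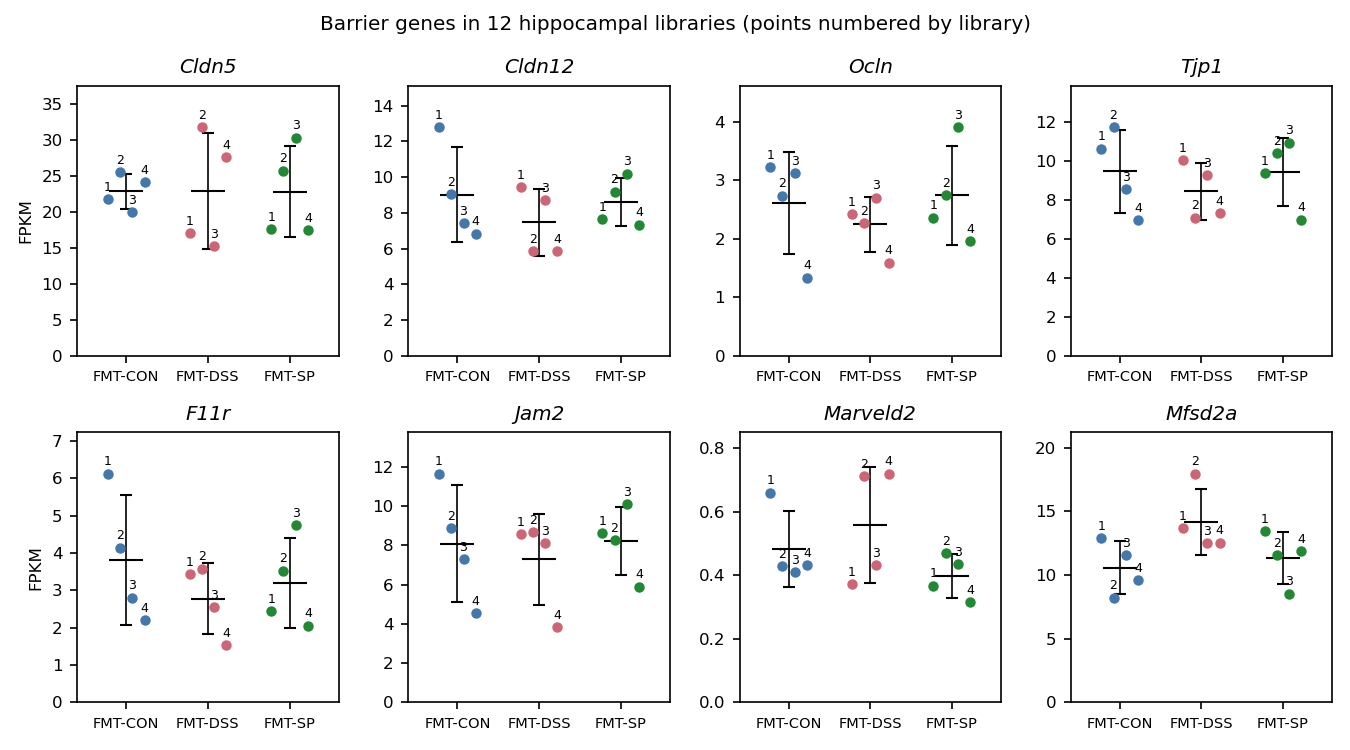
FPKM of the 8 genes (vertical axes, from 0, scaled per gene) in the 3 groups, with points numbered by library, bars at the group mean and whiskers of 1 SD (n = 4 each). For Ocln, F11r and Jam2 the point numbered 4 is the lowest in every group, and for Mfsd2a the FMT-DSS points reach from 12.5 to 18.0 FPKM.

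The comparison of FMT-DSS with FMT-CON asks how the hippocampus differs between mice that received these transplants. None of the 7 tested barrier genes passed the threshold (limma on log2(FPKM + 1), Benjamini-Hochberg adjusted p under 0.05), and neither did any other of the 12559 genes, so that 0% were called. Mfsd2a was the nearest, 1.34 times as high in mean FPKM in FMT-DSS as in FMT-CON. Its log2 difference was 0.39 ± 0.16 (SE; 95% interval 0.037 to 0.75), with an unadjusted limma p of 0.0331, an adjusted p of 0.966 and an exact two-sided permutation p of 0.0857 over the 70 assignments, where 0.0286 is the smallest possible. It was the only 1 of the 7 under an unadjusted p of 0.05, and 4.06% of all tested genes were (510, of which 157 higher and 353 lower, or 241 higher and 243 lower after median-ratio rescaling). The difference rests partly on single libraries: without FMT-DSS 2 it was 0.28 (unadjusted limma p 0.110), without FMT-CON 2 it was 0.29 (p 0.108), and without FMT-DSS 2 and FMT-DSS 4 together it was 0.30 (p 0.142).

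The 6 tested junction genes were all lower in mean log2 level in FMT-DSS than in FMT-CON, by amounts whose 95% intervals all included 0. The differences were -0.055 ± 0.23 for Cldn5, -0.24 ± 0.20 for Cldn12, -0.13 ± 0.21 for Ocln, -0.14 ± 0.17 for Tjp1, -0.32 ± 0.28 for F11r and -0.13 ± 0.27 for Jam2 (log2, SE), with adjusted limma p from 0.971 to 0.997. Marveld2, not in the fit, differed by 0.068, with an exact permutation p of 0.543. In all, 2 of the 8 genes were higher and 6 lower, and 40.3% of all tested genes were higher, and the median of the 7 tested genes was -0.13 beside -0.035 over all genes. No gene of the 8 had groups that did not overlap, and 1.75% of all tested genes did. The 95% intervals reached from -0.56 to 0.45 for Cldn5 and from -0.92 to 0.27 for F11r, so changes of that size in either direction are not told from 0 with these libraries.

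The order of the junction genes depended on FMT-DSS 2 and FMT-DSS 4. Without these libraries the Cldn5 difference was -0.47 (log2; unadjusted limma p 0.0445, adjusted p 0.9997), while those of Cldn12 (0.042), Ocln (0.018), Tjp1 (0.049) and Jam2 (0.10) were above 0. The same 2 libraries had the glucocorticoid-responsive list highest, summed and as a mean of logs. Their microglia list means, -0.54 and -0.72 relative to the average library, were the lowest, but the summed microglia level was the highest of all in FMT-DSS 2 (247.8 FPKM) and the lowest in FMT-DSS 4 (158 FPKM), since its members went both ways. Against FMT-CON, 3 of 12 microglia genes were higher in FMT-DSS (the complement genes C1qa, C1qb and C1qc) and 9 lower, beside 40.3% of all tested genes higher. The part of these lists in the values of the barrier genes was not tested.

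The comparison of FMT-SP with FMT-DSS asks what the addition of SP changes. No barrier gene and no other gene passed the threshold (0% called), and none of the 7 had an unadjusted limma p under 0.05, against 2.50% of all tested genes. Mfsd2a was lower in FMT-SP, at 0.801 of the FMT-DSS mean, with a log2 difference of -0.30 ± 0.16 (SE; 95% interval -0.65 to 0.057), an unadjusted limma p of 0.0920, an adjusted p of 0.999 and an exact permutation p of 0.114. Without FMT-DSS 2 it was -0.19 (unadjusted limma p 0.271), and without FMT-SP 3 it was -0.18 (p 0.283). Cldn12 (0.20), Ocln (0.19), Tjp1 (0.14), F11r (0.15) and Jam2 (0.19) were higher by amounts close to or below their standard errors of 0.17 to 0.28, Cldn5 differed by 0.019 (-0.011 after median-ratio rescaling), and Marveld2 by -0.15 (exact permutation p 0.200). Thus 6 of the 8 were higher, or 5 after that rescaling, against 58.9% of all tested genes. No barrier gene had groups that did not overlap, against 1.27% of all tested genes. This comparison shares its FMT-DSS libraries with the previous one, so opposite signs in the 2 comparisons are not separate observations.

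Between FMT-SP and FMT-CON the 8 genes lay close together. The log2 differences were -0.035 for Cldn5, -0.039 for Cldn12, 0.065 for Ocln, 0.00090 for Tjp1, -0.18 for F11r, 0.060 for Jam2, -0.084 for Marveld2 and 0.094 for Mfsd2a, so 4 were higher and 4 lower beside 46.7% of all tested genes higher. Standard errors were between 0.16 and 0.28, all adjusted limma p were 0.99999, and 0% of genes were called. None of the 8 had an unadjusted p under 0.05 or groups that did not overlap, against 0.358% and 0.494% of all tested genes. The intervals were wide enough, at -0.54 to 0.47 for Cldn5 and -0.26 to 0.45 for Mfsd2a, that equality of the groups is not shown.

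**Figure D2:**
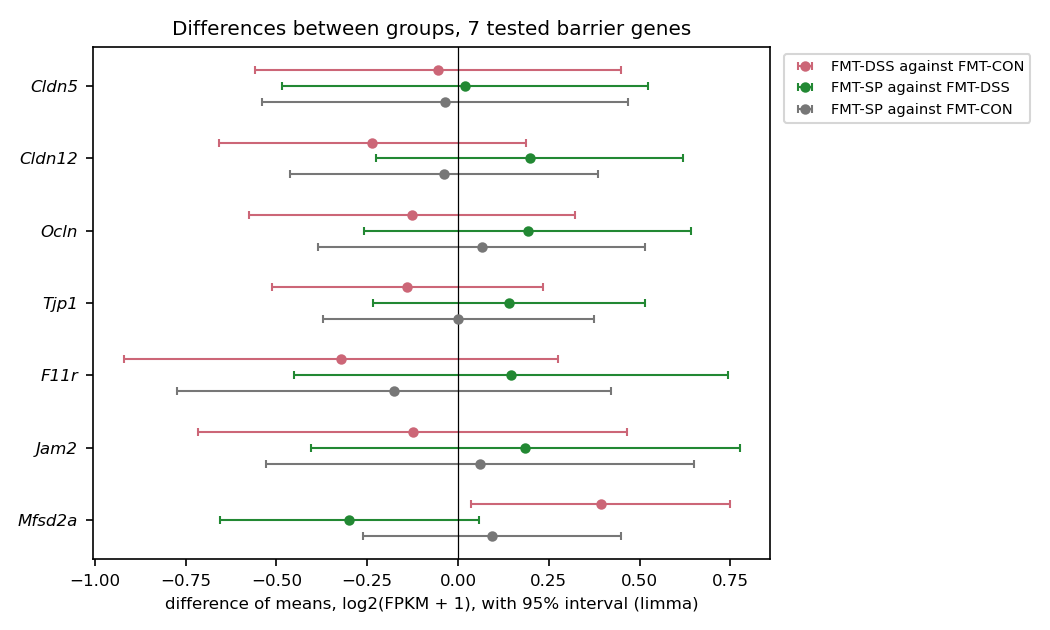
Differences of mean log2(FPKM + 1) between groups (horizontal axis) for the 7 tested genes, with 95% intervals from limma (n = 4 libraries a group). Only the interval of Mfsd2a in FMT-DSS against FMT-CON, 0.037 to 0.75, lies to 1 side of 0 before adjustment.

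Across the 12 libraries the genes fell into a group of 5 that varied together and 3 that did not join it, a division made after the values were seen. Pearson r of log2(FPKM + 1) among Cldn12, Ocln, Tjp1, F11r and Jam2 was 0.713 to 0.879 over their 10 pairs (Spearman rho 0.678 to 0.909, n = 12), highest between F11r and Jam2 and lowest between Cldn12 and Ocln. These correlations are descriptions, since the libraries share depth and tissue makeup: 12.7% of all tested genes had an r with Cldn12 at least as high as that of Ocln, and 2.13% an r with F11r at least as high as that of Jam2. Cldn5 had an r of -0.198 to 0.263 with the 5, and Mfsd2a of -0.411 to 0.060. Cldn5 was nearest to Marveld2 (r 0.613, rho 0.741), and Marveld2 and Mfsd2a had an r of 0.411 with a rho of 0.070. Without FMT-DSS 2 and FMT-DSS 4 the r among the 5 was 0.682 to 0.933 (10 libraries), and that of Cldn5 with Marveld2 was 0.359. The r of Marveld2 with the 5 was then 0.398 to 0.762, highest with F11r. That of Cldn5 with the 5 was 0.151 to 0.529, also highest with F11r, so its values rest in part on these 2 libraries. The r of Mfsd2a with the 5 was -0.207 to 0.119. Cldn5 and Mfsd2a had an r of -0.166 over the 12 libraries and -0.792 over the 10. The label of the set, tight junction genes of 1 barrier, thus did not describe 1 pattern of RNA levels in these libraries.

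**Figure D3:**
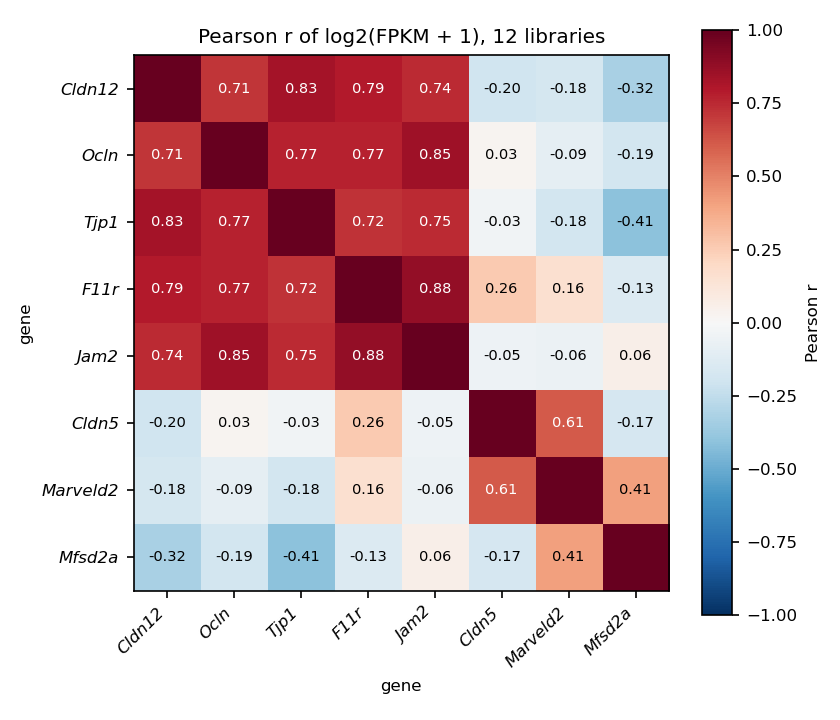
Pearson r of log2(FPKM + 1) over the 12 libraries for each pair of the 8 genes (both axes list the genes, colour and number give r). The upper left block of Cldn12, Ocln, Tjp1, F11r and Jam2 holds values from 0.71 to 0.88, and Cldn5 reaches 0.61 only with Marveld2.

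The libraries numbered 4 stood low for the 5 genes that varied together. Mean FPKM in those 3 libraries was 0.521 of that in the other 9 for F11r, 0.534 for Jam2, 0.575 for Ocln, 0.725 for Tjp1 and 0.748 for Cldn12, against 0.925 for Mfsd2a, 1.013 for Cldn5 and 1.03 for Marveld2. The median over all tested genes was 0.948, and 17.1% of tested genes (2146) had those 3 libraries lowest, as Ocln, F11r and Jam2 had. Without them the r among the 5 genes ran from 0.437 to 0.870 (9 libraries). The mitochondrial share of FPKM had an r of -0.91 with Jam2, -0.77 with F11r, -0.76 with Ocln, -0.75 with Tjp1 and -0.59 with Cldn12, and of 0.021 with Cldn5; its part in the pattern was not tested.

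Over the 12 libraries the astrocyte list and others set Cldn5 apart from the 5 genes, and the endothelial and choroid plexus lists did not. The list of Wnt signalling and barrier transcription genes described below had an r of 0.81 to 0.91 with the 5 and 0.17 with Cldn5. For the oligodendrocyte list these were 0.51 to 0.79 and 0.028. Without FMT-DSS 2 and FMT-DSS 4 the astrocyte, Wnt and oligodendrocyte lists had an r of 0.16, 0.51 and 0.28 with Cldn5. With the 5 genes they had 0.74 to 0.96, 0.84 to 0.89 and 0.65 to 0.90. The mean of 12 astrocyte genes, among them those of the endfeet that wrap the capillary (Aqp4, Kcnj10, Gja1), had an r of 0.97 with Jam2, 0.83 with Ocln, 0.82 with F11r, 0.81 with Tjp1 and 0.70 with Cldn12, and of -0.064 with Cldn5. The mean of 16 endothelial genes had an r of 0.57 with Cldn5 (rho 0.636), 0.48 with F11r (rho 0.685) and Ocln, 0.41 with Tjp1, 0.35 with Jam2 and Cldn12, and -0.20 with Mfsd2a, although all are known from endothelium. The summed level of the astrocyte genes was 346 to 604 FPKM in FMT-CON, 324 to 563.8 FPKM in FMT-DSS and 405 to 570.3 FPKM in FMT-SP, and that of the endothelial genes 122 to 154, 109 to 161 and 134 to 165 FPKM, with no gene of either list at 0 in any library. F11r also moved with the thalamus list (r 0.89) and the choroid plexus list (r 0.73), whose summed levels ran from 34.6 to 341.9 FPKM and from 55.1 to 4220 FPKM. The thalamus list was not particular to F11r: its r was 0.75 with Cldn12, 0.71 with Jam2, 0.69 with Ocln and 0.59 with Tjp1. With Cldn5 it was 0.28. The ependymal list had an r of 0.58 to 0.81 with the 5 genes and 0.24 with Cldn5. The choroid plexus list had an r of 0.55 with Cldn5 (rho 0.62), about that of the endothelial list, and of 0.57 with Marveld2. With the other 4 of the 5 genes its r was 0.46 to 0.55. Without FMT-DSS 2 and FMT-DSS 4 its r was 0.49 with Cldn5 and 0.73 to 0.91 with the 5 genes. Over those 10 libraries the choroid plexus list thus did set Cldn5 apart, and its part in these levels was not tested. FMT-CON 1, highest for F11r, Jam2 and Cldn12, was highest in the thalamus list. Choroid plexus and striatum list means were also used as covariates in the model. The difference between FMT-DSS and FMT-CON was then -0.49 for F11r (unadjusted limma p 0.00855, adjusted p 0.202). It was -0.33 for Cldn12 (unadjusted limma p 0.0133) and 0.42 for Mfsd2a (p 0.0284). None of these genes passed the threshold. The share of all tested genes with unadjusted p this small in the same model is not given here. These p-values therefore do not set the barrier genes apart from other genes.

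Relative to the endothelial list of the same library, Cldn5 remained uneven within FMT-DSS. Its log2 level minus that of the list, centred over libraries, was -0.14, 0.46, -0.52 and 0.30 in FMT-DSS libraries 1 to 4, -0.14, 0.18, -0.088 and 0.21 in FMT-CON, and -0.23, -0.095, 0.26 and -0.20 in FMT-SP. FMT-DSS thus held both the highest and the lowest library. With the endothelial mean as a covariate the Cldn5 difference between FMT-DSS and FMT-CON was 0.0072 and that of Mfsd2a 0.39 (unadjusted limma p 0.0447, adjusted p 0.928).

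**Figure D4:**
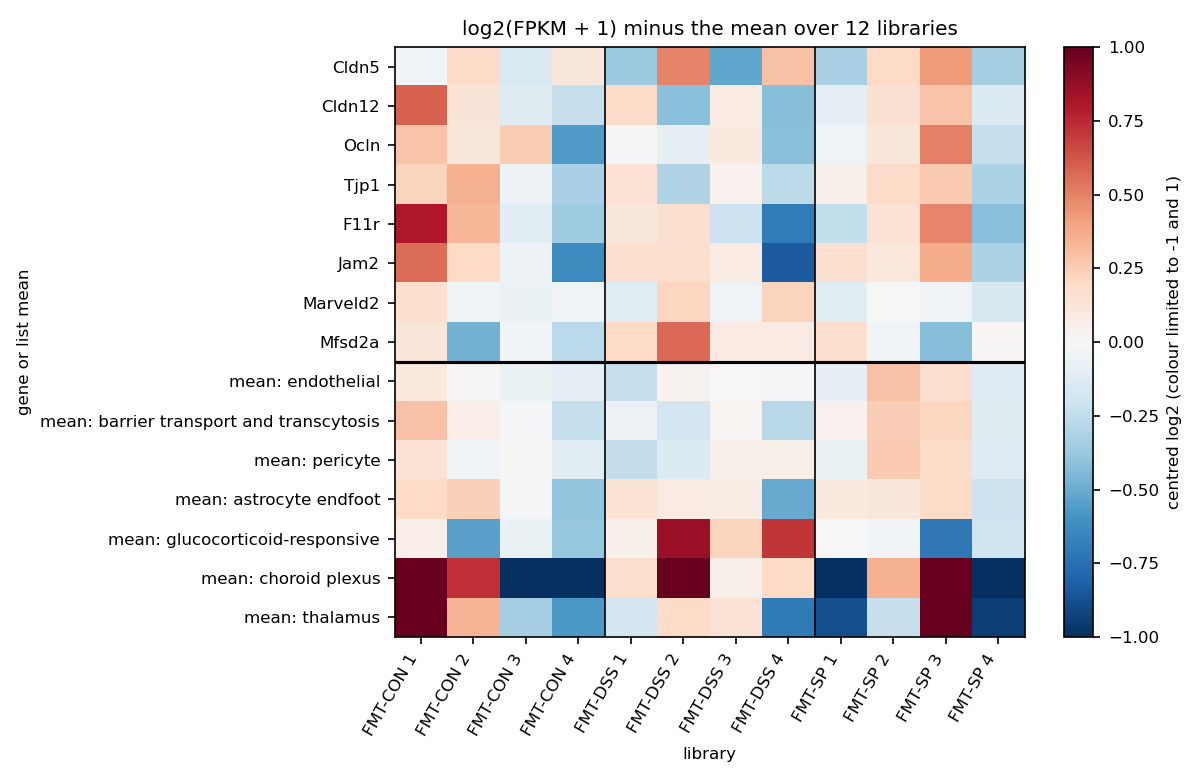
Log2(FPKM + 1) minus the mean over the 12 libraries (colour, limited to -1 and 1) for the 8 genes above the thick line and for the means of 7 gene lists below it, with libraries in columns and thin lines between groups. Columns numbered 4 are blue for Ocln, F11r, Jam2 and the astrocyte list, and Mfsd2a has its darkest red in FMT-DSS 2, where the glucocorticoid-responsive list is also darkest.

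Mfsd2a moved with genes that respond to glucocorticoid hormones. The mean of 15 such genes (among them Fkbp5, Pdk4, Ddit4 and Per1, chosen with earlier results of these data known) had an r of 0.87 and a rho of 0.84 with Mfsd2a, 0.68 with Marveld2 and 0.072 with Cldn5 (n = 12). The list means were 0.067, -0.54, -0.064 and -0.38 in FMT-CON libraries 1 to 4, 0.054, 0.87, 0.23 and 0.72 in FMT-DSS, and -0.0014, -0.027, -0.71 and -0.20 in FMT-SP (centred log2). Both the list and Mfsd2a were lowest in FMT-CON 2 and FMT-SP 3 and highest in FMT-DSS 2, while in FMT-DSS 4 the list was high and Mfsd2a, at 12.5 FPKM, was not. In FMT-DSS against FMT-CON, 15 of the 15 list genes were higher, beside 40.3% of all tested genes. Of the 15, 9 had an unadjusted limma p under 0.05, beside 4.06% of all tested genes, and none passed the adjusted threshold. Without FMT-DSS 2 and FMT-DSS 4, 13 were higher and 1 had such a p. The summed level was 546 to 894 FPKM in FMT-CON, 716 to 1517 FPKM in FMT-DSS and 505 to 962 FPKM in FMT-SP. Fkbp5, a co-chaperone of the glucocorticoid receptor, stood at 29.4 ± 7.87 against 18.3 ± 1.05 FPKM (SD, n = 4 each). Its groups did not overlap, which held for 1.75% of all tested genes. Without FMT-DSS 2 and FMT-DSS 4 it differed by 0.39 (log2, unadjusted limma p 0.0585). Over the other 10 libraries the list had an r of 0.92 with Mfsd2a, 0.14 with Marveld2 and -0.78 with Cldn5, so its values with Marveld2 and Cldn5 rest on FMT-DSS 2 and FMT-DSS 4. The part of this list in the Mfsd2a difference was not tested.

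**Figure D5:**
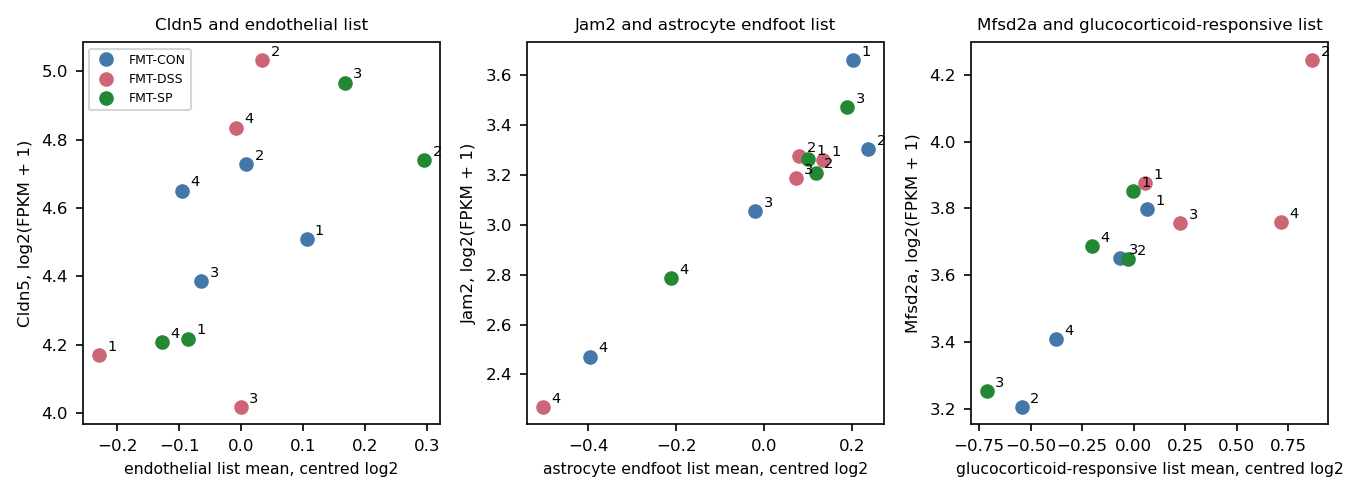
Level of Cldn5, Jam2 and Mfsd2a (vertical axes, log2(FPKM + 1)) against the mean of the endothelial, astrocyte and glucocorticoid-responsive lists (horizontal axes, centred log2), with 1 point per library, numbered and coloured by group. Pearson r is 0.57, 0.97 and 0.87, and in the middle panel the 3 points at the lower left are the libraries numbered 4.

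The genes most like each barrier gene over the 12 libraries, by Pearson r among tested genes, differed between the members. For Cldn5 they were Dcdc2a (0.878), Pdgfrb (0.868), the growth factor receptor that marks pericytes, and Zfpm1 (0.833). For Mfsd2a they were Bcl2l1 (0.909), an inhibitor of apoptosis, Eci2 (0.905), an enzyme of fatty acid oxidation, and Fkbp5 (0.862). For Jam2 they were Srpr (0.986), Slc4a4 (0.980), a sodium bicarbonate cotransporter of astrocytes, and Pdzd8 (0.978). For F11r they were Plch1 (0.976), Chrna4 (0.971), a nicotinic receptor subunit, and Kcnj12 (0.964), a potassium channel. For Tjp1 they were Vldlr (0.975), a lipoprotein and reelin receptor, Cdk19 (0.971) and Dcaf1 (0.969). For Cldn12 they were Cilk1 (0.969), Sgpp2 (0.964) and Ktn1 (0.953), and for Ocln they were Sdc2 (0.936), a syndecan, Pcdhb17 (0.930) and Capn7 (0.930). Marveld2, under the filter, was not searched. None of the 7 tested barrier genes was among the 3 most like another. Values picked as the highest among 12559 genes are high by that choice. Pdgfrb alone does not stand for pericytes: the mean of 9 pericyte genes had an r of 0.34 (rho 0.32) with Cldn5 over the 12 libraries. For the endothelial list the r was 0.57. Without the FMT-DSS libraries highest in the glucocorticoid-responsive list, these values were 0.57 and 0.66 (10 libraries).

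The other genes of the junction did not pass the test either. Of 22 listed, 17 were tested, and in FMT-DSS against FMT-CON 6 were higher and 11 lower with a median of -0.044 (log2). None was under an unadjusted limma p of 0.05. Of all tested genes, 40.3% were higher and 4.06% were under that p. Mpdz, a multi-PDZ scaffold, had the smallest p (-0.17 ± 0.088, SE, p 0.0820), followed by Jam3 (-0.29 ± 0.16, p 0.105), the partner of Jam2. Cldn11, the claudin of myelin, was the highest of the list at 127 ± 51.2 FPKM in FMT-CON (SD, n = 4), and its largest difference was -0.27 ± 0.28 (log2, SE), in FMT-SP against FMT-CON. In FMT-SP against FMT-DSS and in FMT-SP against FMT-CON, 7 were higher and 10 lower, with medians of -0.050 and -0.055. Of all tested genes, 58.9% and 46.7% were higher. Without FMT-DSS 2 and FMT-DSS 4, FMT-SP against FMT-DSS had 11 higher and 6 lower, and Mpdz (-0.067, p 0.483) and Jam3 (-0.074, p 0.677) in FMT-DSS against FMT-CON were nearer to 0.

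The list of transport genes of the barrier held members with unadjusted limma p under 0.05. In FMT-DSS against FMT-CON these were 1 higher and 2 lower, beside 4.06% of all tested genes. In FMT-SP against FMT-DSS they were 3 higher and 0 lower, beside 2.50% of all tested genes. Of 17 tested, 7 were higher and 10 lower in FMT-DSS against FMT-CON, beside 40.3% of all tested genes higher. The median was -0.21, and none passed the threshold. Slc2a1, the glucose transporter GLUT1, stood at 64.6 ± 12.6 against 45.3 ± 12.6 FPKM (log2 difference 0.52 ± 0.21, unadjusted limma p 0.0279). The organic anion transporter gene Slco1a4 stood at 10.6 ± 4.18 against 15.4 ± 3.52 FPKM (-0.56 ± 0.23, p 0.0320) and the glutamine transporter gene Slc38a5 at 1.25 ± 0.974 against 2.26 ± 0.324 FPKM (-0.62 ± 0.26, p 0.0327). Cavin1, a coat protein of caveolae, differed by -0.31 ± 0.15 (p 0.0659). In FMT-SP against FMT-DSS 13 were higher and 4 lower, with a median of 0.25, beside 58.9% of all tested genes higher. Among the 13 were Slco1a4 (0.64, unadjusted limma p 0.0164), Slc38a5 (0.68, p 0.0206) and the efflux pump genes Abcg2 (0.29, p 0.0481) and Abcb1a (0.57, p 0.0660). These p-values depended in part on FMT-DSS 2 and FMT-DSS 4, though leaving libraries out also raises p by making FMT-DSS smaller. Without both, none of the 17 genes had an unadjusted p under 0.05 in either comparison: in FMT-DSS against FMT-CON Slc2a1 differed by 0.35 (p 0.207), Slco1a4 by -0.12 (p 0.513) and Slc38a5 by -0.33 (p 0.286), and in FMT-SP against FMT-DSS Slco1a4 by 0.20 (p 0.278), Slc38a5 by 0.39 (p 0.207), Abcg2 by 0.13 (p 0.361) and Abcb1a by 0.25 (p 0.456). With all libraries the adjusted p were 0.966 in the former comparison and 0.999 in the latter for each of these genes. Slc38a5 was also below every FMT-CON library in FMT-DSS 1 (0.819 FPKM), but above them in FMT-DSS 3 (2.67 FPKM). Slc2a1 was above every FMT-CON library in FMT-DSS 3 (65.4 FPKM), but not in FMT-DSS 1 (48.5 FPKM). Over all libraries the list had an r of -0.028 with Cldn5 and of 0.77 to 0.88 with the 5 genes that varied together. Without FMT-DSS 2 and FMT-DSS 4 its r was 0.42 with Cldn5 and 0.79 to 0.87 with the 5.

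Endothelial identity genes gave no shift in 1 direction in FMT-DSS. Of the 16, 8 were higher and 8 lower against FMT-CON, beside 40.3% of all tested genes higher. Of all tested genes, 4.06% had an unadjusted limma p under 0.05 in that comparison. Tek, the angiopoietin receptor, stood at 1.61 ± 0.693 against 2.75 ± 0.860 FPKM (-0.53 ± 0.22, unadjusted limma p 0.0355) and Robo4, a guidance receptor of endothelium, at 3.49 ± 1.78 against 2.08 ± 0.481 FPKM (0.48 ± 0.22, p 0.0521). In FMT-SP against FMT-DSS 11 were higher and 5 lower, beside 58.9% of all tested genes higher. Of all tested genes, 2.50% had an unadjusted limma p under 0.05 in this comparison, and 1.27% had groups that did not overlap. There Tek differed by 0.67 (unadjusted limma p 0.0109) and Robo4 by -0.53 (p 0.0332, groups that did not overlap). Adjusted p were 0.966 and 0.999. Both differences rested on FMT-DSS 2 and FMT-DSS 4. Tek stood at 2.08, 1.11, 2.33 and 0.930 FPKM in FMT-DSS libraries 1 to 4, where libraries 1 and 3 lay inside the FMT-CON range of 1.62 to 3.54 FPKM. Robo4 stood at 2.14, 3.67, 2.21 and 5.95 FPKM in the same order. Without libraries 2 and 4, Tek differed by -0.20 (p 0.421) and Robo4 by 0.056 (p 0.718) in FMT-DSS against FMT-CON, Tek by 0.34 (p 0.179) and Robo4 by -0.11 (p 0.478) in FMT-SP against FMT-DSS, and the list had 5 higher and 11 lower in the former and 14 higher and 2 lower in the latter.

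Of 15 tested genes of Wnt signalling and transcription that maintain the barrier, 5 were higher and 10 lower in FMT-DSS against FMT-CON. Of all tested genes, 40.3% were higher in that comparison. In FMT-SP against FMT-DSS 13 of the 15 were higher and 2 lower, beside 58.9% of all tested genes higher. Of all tested genes, 2.50% had an unadjusted limma p under 0.05 in this comparison, and 1.27% had groups that did not overlap. In the latter, Wnt7b, a ligand made by neurons and glia for the endothelium, stood at 10.7 ± 0.820 against 7.43 ± 1.77 FPKM (0.49 ± 0.20, unadjusted limma p 0.0324, groups that did not overlap), and the endothelial transcription factor genes Foxf2 (0.31, p 0.0483) and Foxq1 (0.37, p 0.0491) followed. None passed the adjusted threshold (adjusted p 0.999). Pericyte genes were 4 higher and 5 lower in FMT-DSS and 5 higher and 4 lower in FMT-SP against FMT-DSS, where Rgs5 differed by 0.39 (p 0.0487). Without FMT-DSS 2 and FMT-DSS 4, FMT-SP against FMT-DSS gave 0.48 for Wnt7b (p 0.0638), 0.21 for Foxf2 (p 0.245), 0.36 for Foxq1 (p 0.132) and 0.20 for Rgs5 (p 0.375), with 11 of the 15 Wnt and transcription genes higher and 4 lower.

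Of 14 genes of endothelial activation and matrix breakdown, 7 passed the filter on low values and were tested. In FMT-DSS against FMT-CON 4 were higher and 3 lower (median 0.063, log2), beside 40.3% of all tested genes higher. In FMT-SP against FMT-DSS 3 were higher and 4 lower (median -0.11), beside 58.9% of all tested genes higher. In each of these comparisons 1 of the 7 had an unadjusted limma p under 0.05, beside 4.06% and 2.50% of all tested genes. Icam1, a leukocyte adhesion receptor, stood at 4.63 ± 4.26 FPKM in FMT-DSS against 0.843 ± 0.162 FPKM in FMT-CON and 0.932 ± 0.426 FPKM in FMT-SP (SD, n = 4 each). Its log2 difference was 1.24 ± 0.46 in FMT-DSS against FMT-CON (unadjusted limma p 0.0186, adjusted p 0.966), and the FMT-DSS values were 0.986, 9.57, 1.17 and 6.79 FPKM in libraries 1 to 4. Without FMT-DSS 2 and FMT-DSS 4 the difference was 0.18 (unadjusted limma p 0.399), so the higher mean came from these libraries. The list mean was highest in FMT-DSS 2 (1.22) and FMT-DSS 4 (0.51), the libraries in which Cldn5 and Marveld2 were high, and had an r of 0.58 with Cldn5, 0.72 with Marveld2 and -0.64 with Cldn12. Over the other 10 libraries these were 0.22, 0.19 and -0.22.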

How the data were processed

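Total RNA of hippocampal tissue was sequenced in 12 libraries, and the deposited table holds values that the authors computed in FPKM, 1 column per library. HISAT2 2.0 and the build mm8 are named in the submitters' processing notes, with no role. The sources used here name no counter, annotation or filter. Read totals were not used here; depth was estimated from single-transcript genes (4709 genes, 39.8% to 43.0% of low values within 0.05 of a whole fragment, 10% by chance), and intervals cover the spread between libraries.

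Groups and numbers came from the sample titles. Values were tested as log2(FPKM + 1) for genes averaging 1 FPKM or more, in 1 linear model of 12 libraries with limma 3.58.1 in R 4.3.3 (two-sided, trend in the empirical Bayes step, Benjamini-Hochberg over 12559 genes, threshold 0.05), which was tested on simulated data. Single genes also had an exact permutation test. A log2 difference on this scale understates the change of low genes. Alternatives covered the pseudocount, filter, scaling, a replicate block, array weights, marker covariates and left-out libraries. Leaving out FMT-DSS 2 and FMT-DSS 4 was extended to the lists and correlations after the data were seen.

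The members and lists were chosen with earlier results of these data known. Named genes are the 8 members, the 3 most correlated genes of each tested member, up to 4 genes of smallest p or highest level per list, and markers of neighbouring tissue; the hippocampal markers and the genes named as examples of a list were added later. Gene positions are from GENCODE vM21 (21092 symbols matched) and promoters from RefSeq, GRCm38.p6, with entries for 7 of the 8.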

Additional observations from a re-analysis of the deposited data

Results flagged for a closer look

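In 24 sets of 4 libraries (8 genes in 3 groups), 2 held a library far from the others by Dixon's criterion for 4 values (the gap to the nearest library over the range), and chance alone gives about 1 in 20. Jam2 in FMT-DSS had 1 low library, FMT-DSS 4 at 3.82 FPKM, where the next was 8.10 FPKM and the highest 8.68 FPKM, a gap of 0.882 of the range. That library also had a mitochondrial share of FPKM among the 3 highest, and a value for Jam2 below that of FMT-CON 4 and FMT-SP 4. Marveld2 in FMT-CON had 1 high library, FMT-CON 1 at 0.659 FPKM, where the next was 0.432 FPKM and the lowest 0.409 FPKM, a gap of 0.908 of the range. FMT-CON 1 was also the library with the highest thalamus list and the highest F11r, Jam2 and Cldn12.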

How the results depend on the processing

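No barrier gene passed the threshold in any of the 24 alternative settings, and the smallest adjusted limma p of a barrier gene was 0.129. Of 576 alternative values of single genes, 522 kept their direction, 50 changed sign and 4 of Marveld2 moved by more than its spread, 1 of them across 0. All-gene counts past the threshold stayed at 0, except for 14 genes in FMT-SP against FMT-DSS with choroid plexus and striatum covariates, none of them a barrier gene. Unadjusted counts varied more: 162 to 1708 genes in FMT-DSS against FMT-CON, 105 to 2211 in FMT-SP against FMT-DSS and 14 to 1146 in FMT-SP against FMT-CON.

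The sign changes follow, in log2, and the cause was not tested. Without FMT-DSS 2 and FMT-DSS 4, FMT-DSS against FMT-CON gave Cldn12 0.042, Ocln 0.018, Tjp1 0.049, Jam2 0.10 and Marveld2 -0.078, and FMT-SP against FMT-DSS gave Cldn12 -0.081, Tjp1 -0.048 and Jam2 -0.040. With array weights Jam2 was 0.034 in FMT-DSS against FMT-CON and Ocln -0.065 in FMT-SP against FMT-CON. With the endothelial covariate Cldn5 was 0.0072 in FMT-DSS against FMT-CON, Cldn5 -0.16 and F11r -0.025 in FMT-SP against FMT-DSS, and Ocln -0.0048, Tjp1 -0.048 and Jam2 -0.0090 in FMT-SP against FMT-CON. Cldn5 in FMT-SP against FMT-DSS was -0.011 after median-ratio rescaling and -0.038 with choroid plexus and striatum covariates, which gave Cldn12 0.094 in FMT-SP against FMT-CON. Without the 3 libraries numbered 4, FMT-SP against FMT-CON gave Cldn5 0.10, Ocln -0.025, Tjp1 -0.00079 and Jam2 -0.024. Marveld2 kept its sign and moved by more than its spread in FMT-SP against FMT-DSS, to -0.0062 without FMT-DSS 2 and FMT-DSS 4 and to -0.37 with a pseudocount of 0.1, and in FMT-SP against FMT-CON, to -0.22 with that pseudocount.

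Leaving out 1 library at a time, the values that crossed 0 were, in FMT-DSS against FMT-CON, Cldn5 (-0.23 to 0.11) and Jam2 (-0.34 to 0.12); in FMT-SP against FMT-DSS, Cldn5 (-0.15 to 0.19), F11r (-0.033 to 0.28) and Jam2 (-0.057 to 0.32); and in FMT-SP against FMT-CON, Cldn5 (-0.18 to 0.073), Cldn12 (-0.14 to 0.13), Ocln (-0.13 to 0.17), Tjp1 (-0.12 to 0.12), F11r (-0.35 to 0.034), Jam2 (-0.16 to 0.24) and Mfsd2a (-0.010 to 0.21). Mfsd2a in FMT-DSS against FMT-CON ran from 0.28 to 0.49.

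The replicate numbers do not show that libraries are paired: same-numbered libraries had correlations of their deviations from -0.451 to 0.841, above 0.1 in 9 of 12 pairs, with 0.694 to 0.841 among those numbered 4, and 7 of 12 libraries correlated best with their own number. With the number as a replicate block 0 genes passed in each comparison, unadjusted counts were 1274, 885 and 310, and Mfsd2a in FMT-DSS against FMT-CON was 0.39 with an unadjusted limma p of 0.0341 and an adjusted p of 0.482.

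Depth limits Marveld2, whose lowest value rests on 20.04 to 33.03 fragments by the transcript counted. For Ocln and F11r the limit depends on the transcript. Their lowest values rest on 18.2 and 22.4 fragments with the shortest, and on 189 and 133 with the longest. With 4 libraries a group, the unadjusted 95% intervals of the tested genes reached about 0.35 to 0.6 log2 units on either side. Smaller changes are not told from 0, and larger ones can also go uncalled after adjustment. Mfsd2a in FMT-DSS against FMT-CON, at 0.39, had an adjusted limma p of 0.966.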
